A study of Drosophila melanogaster with 30 samples.

Results

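The Cpr genes of Drosophila melanogaster encode cuticular proteins that carry the Rebers and Riddiford consensus, a stretch of sequence that binds chitin in the cuticle of arthropods. Members were all genes named Cpr followed by digits and letters in the 16 count tables, with chromosome 4 left out. This gave 70 of 14284 genes, chosen by name and by no measured value, and no gene with such a name lay on chromosome 4. The gene called Cpr alone, which encodes the cytochrome P450 reductase, was no member. All 70 names are also symbols of the RefSeq annotation. By chromosome arm, 35 members lay on 3L, 21 on 2R, 5 on 2L, 5 on 3R and 4 on X.

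Cuticle is made by epidermis, trachea and other ectodermal epithelia, which secrete chitin and cuticular proteins in waves at each moult under the control of ecdysone. Many cuticular protein genes arose by local duplication and lie in clusters named after their cytological position, such as Cpr64A on 3L. The brain makes no cuticle, and its neuroblasts and neurons are not known for the use of these genes.

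Chromatin of cells isolated from brains of wandering third-instar (L3) larvae had been digested with micrococcal nuclease and immunoprecipitated for 2 histone marks. Trimethylation of histone H3 on lysine 4 (H3K4me3) marks the starts of active genes, and trimethylation on lysine 27 (H3K27me3) is laid down by the Polycomb repressive complex PRC2 over silent genes. The 4 groups were neurons, brat RNAi numb RNAi neuroblasts (brat numb RNAi below), brat RNAi neuroblasts, and type I neuroblasts, with 2 libraries of each mark per group. Brat, a translational repressor, and Numb, an inhibitor of Notch, limit the self-renewal of neural stem cells, and the labels call the cells of both RNAi groups tumor neuroblasts. The labels write wt for type I neuroblasts, give no driver for the RNAi, no genotype for neurons and no number of animals or brains, and no group holds normal type II neuroblasts. The sources do not say whether replicates stem from different animals, so a p-value here reflects only how these samples spread, which may be technical.

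Reads per library numbered 2461222 to 12258131 for H3K4me3 and 15281722 to 25009648 for H3K27me3. A member had a median of 28 to 69.5 H3K4me3 reads in a library and of 154.5 to 225 H3K27me3 reads. Markers of the labelled cells were present: the summed H3K4me3 of 6 neuroblast genes was 187 to 191 CPM in neurons, 517 to 951 in brat numb RNAi, 479 to 735 in brat RNAi and 884 to 1161 in type I neuroblasts. Of these genes wor, dpn and mira fell in neurons against type I neuroblasts (edgeR adjusted p = 0.025, 0.021 and 0.033). A further gene of the 6, ase, was lower in brat RNAi than in type I neuroblasts. Its means were 21.2 ± 18.1 and 168 ± 16.8 CPM (SD, n = 2 each, log2 fold change -3.01, SE 0.72, edgeR adjusted p = 0.040). The summed H3K4me3 of 7 neuronal genes was 376 to 572, 162 to 206, 160 to 189 and 204 to 408 CPM in the same order of groups. Neurons and type I neuroblasts thus overlapped in this sum. Of the 7 genes, 3 lay above the all-gene median of H3K4me3, led by elav at a mean of 189 CPM, and edgeR called none in any comparison. Trachea, which does make cuticle, is one tissue that brain preparations can hold. Its 8 markers summed to 57.1 to 107, 60.2 to 124, 57.3 to 92.5 and 49.3 to 66.1 CPM of H3K4me3 in the same order. None of the 8 exceeded the all-gene median of H3K4me3, and none was at 0 reads in any library. Markers of glia (10 genes) summed to 167 to 176, 185 to 237, 171 to 286 and 255 to 315 CPM, of hemocytes and fat body (11) to 57.3 to 109, 61.2 to 143, 65.3 to 133 and 42.7 to 66.1, and of muscle (9) to 102 to 167, 171 to 181, 162 to 201 and 116 to 135. None of these was at 0 reads either, and the part of other cell types in the values below was not tested.

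H3K4me3 was low at Cpr genes in every group. The level here is the count in the 501 bases from a gene's annotated start, scaled to a common library total with TMM factors (CPM). With each gene at the mean of its 4 group means, the median of the 70 members was 7.12 CPM, against 15.7 CPM over all genes. Of the members, 69 of 70 lay below the all-gene median and 45 of 70 below the 25th percentile, 8.29 CPM. No library held a member above its 75th percentile of all genes, and the number above the all-gene median was 1 and 3 in neurons, 3 and 3 in brat numb RNAi, 2 and 3 in brat RNAi and 0 and 2 in type I neuroblasts. The cuticle genes thus carried less of the active mark than most genes in each of the 8 libraries.

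**Figure D1:**
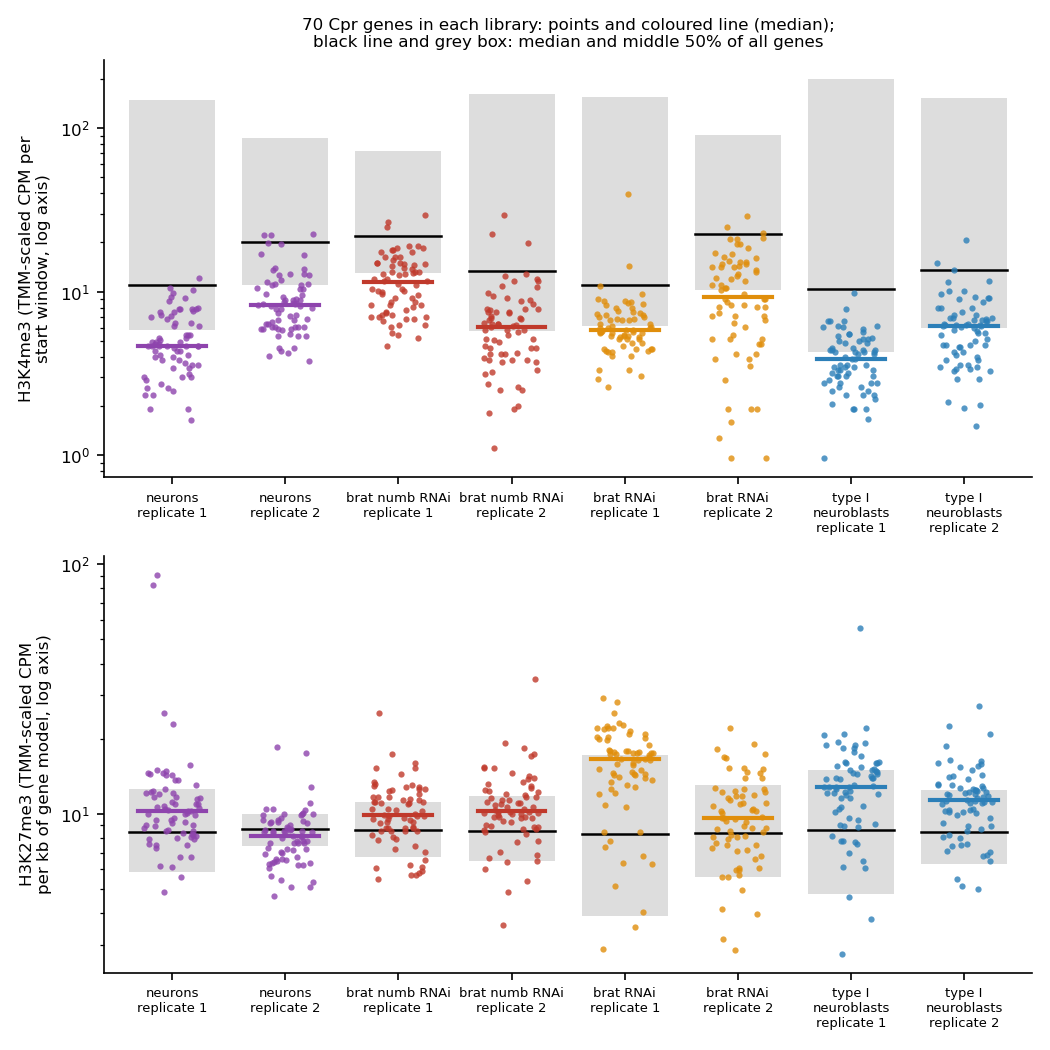
Each point is a Cpr gene in 1 library, as H3K4me3 in CPM per start window (top, log axis) and H3K27me3 in CPM per kb of gene model (bottom, log axis); coloured lines are medians of the 70 members, and black lines and grey boxes are the median and the middle 50% of all genes. The H3K4me3 medians of the members lie below those of all genes in all 8 libraries, and the H3K27me3 medians lie above them in all but neurons replicate 2.

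The highest H3K4me3 was at Cpr60D, the single member above the all-gene median. It was at 9.16 and 19.5 CPM in neurons, 26.7 and 19.9 in brat numb RNAi, 14.4 and 14.1 in brat RNAi, and 9.80 and 20.8 in type I neuroblasts. Both brat numb RNAi libraries lay above those of neurons and of brat RNAi, and the type I libraries overlapped those of each other group. Next came Cpr67B with a mean of 15.2 CPM, Cpr64Ac with 14.3, Cpr65Ay with 13.4, Cpr47Eg with 12.7, Cpr78Ca with 12.6, Cpr49Ad with 11.9 and Cpr78Cb with 11.6. The 75th percentile of all genes was far above these 8 at 136 CPM. The lowest members, Cpr11A and Cpr47Eb, were at 3.81 and 3.68 CPM.

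H3K27me3 was above that of the typical gene at most members, but below that of strongly marked genes. Its level is the count over the whole gene model per kb, in TMM-scaled CPM. The members had a median of 11.3 CPM per kb, against 8.63 over all genes; 59 of 70 lay above the all-gene median, 18 of 70 above the 75th percentile (12.9) and 1 of 70, Cpr100A, in the highest 5% (over 22). Other genes low in the active mark had slightly more: the 7213 other genes with no more H3K4me3 than Cpr60D had a median of 12.3 CPM per kb, and the 7001 other genes above it 6.45. This class, called low H3K4me3 below, reaches up to 16.8 CPM, above the all-gene median, and is not matched to the members' levels. Members were short, with a median gene model of 1053.5 bases against 2029 over all genes. In models under 800 bases the median was 11.7 CPM per kb for 29 members and 12.5 for 1566 other genes with low H3K4me3, and from 800 to 1500 bases 11.5 for 18 members and 12.5 for 1806 such genes. The gap was widest from 1500 to 3000 bases, 9.91 for 11 members and 12.7 for 1725 such genes, and in longer models the medians were 11.2 for 12 members and 11.7 for 2116 genes.

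The excess over all genes varied between the libraries of a group. The ratio of the members' median to the all-gene median was 0.27 and -0.09 on the log2 scale in neurons, 0.20 and 0.26 in brat numb RNAi, 0.99 and 0.20 in brat RNAi, and 0.58 and 0.43 in type I neuroblasts. The brat RNAi replicate 1 library stood apart by its ratio of 0.99, and neurons replicate 2 by a ratio below 0. Members above the all-gene median numbered 61 in brat RNAi replicate 1, 25 in neurons replicate 2 and 45 to 58 in the other libraries. The same libraries stood apart over all genes: the middle 50% of genes spanned 3.89 to 17.2 CPM per kb in brat RNAi replicate 1 and 7.45 to 9.97 in neurons replicate 2. How far this width sets the members' levels was not tested.

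Across the 70 members the mean levels of the marks went together weakly (Spearman's rho 0.28), while over all 14284 genes they went in opposite directions (rho -0.51). These are descriptions, since genes share libraries and neighbourhoods and the members cover a narrow range of H3K4me3.

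Treating genes under 50 kb apart as one block, the 70 members formed 33 blocks: 10 clusters of 3 to 8 genes with 45 members in all, 2 pairs (Cpr50C and Cpr97E) and 21 single genes. Blocks joined at 20 kb gave the same number, and at 100 kb 32. The clusters ran, by their first and last members in build dm3, from Cpr47Ea to Cpr47Eg (7 genes, 2R: 7139256 to 7165946) and from Cpr49Aa to Cpr49Ah (8 genes, 2R: 8264175 to 8302675) on the second chromosome. On 3L they were Cpr62Ba to Cpr62Bc (3 genes, 1824127 to 1842080), Cpr64Aa to Cpr64Ad (4 genes, 4207838 to 4216414), Cpr65Au to Cpr65Az (7 genes, 6124413 to 6154689) and Cpr65Ea to Cpr65Ec (3 genes, 7079156 to 7086943). The others on 3L were Cpr67Fa1 to Cpr67Fb (3 genes, 10883097 to 10887793), Cpr72Ea to Cpr72Ec (3 genes, 16355703 to 16360440), Cpr76Ba to Cpr76Bd (4 genes, 19510761 to 19531401) and Cpr78Ca to Cpr78Cc (3 genes, 21284960 to 21294271). Other gene models overlapped the span of 5 of the 10 clusters, 11 of them in Cpr65A and 7 in Cpr49A.

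Neighbouring members resembled each other in H3K27me3. Among the 45 clustered genes 53.1% of the variance of log2 mean level lay between clusters for H3K27me3, and 22.7% for H3K4me3. Cluster means ran over a narrow range, 6.15 to 13.3 CPM per kb of H3K27me3 and 5.63 to 11.4 CPM of H3K4me3. The Cpr67F cluster was the low end for H3K27me3, with Cpr67Fb at 5.30 and Cpr67Fa1 at 5.75 CPM per kb and none of its 3 genes above the all-gene median. In the other 9 clusters, all members exceeded that median but Cpr64Ad (7.16). The Cpr78C cluster was the high end for both marks.

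The flanks of the clusters carried more of the active mark than the clusters. In all 10, the mean H3K4me3 of the members was below the median of the 5 genes on either side, which was 8.63 to 119 CPM. For H3K27me3 the members' mean exceeded the flank median in 7 of the 10. The Cpr62B cluster gave the plainest contrast: its members averaged 7.02 CPM of H3K4me3 against a flank median of 119, and 12.2 CPM per kb of H3K27me3 against 5.72.

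**Figure D2:**
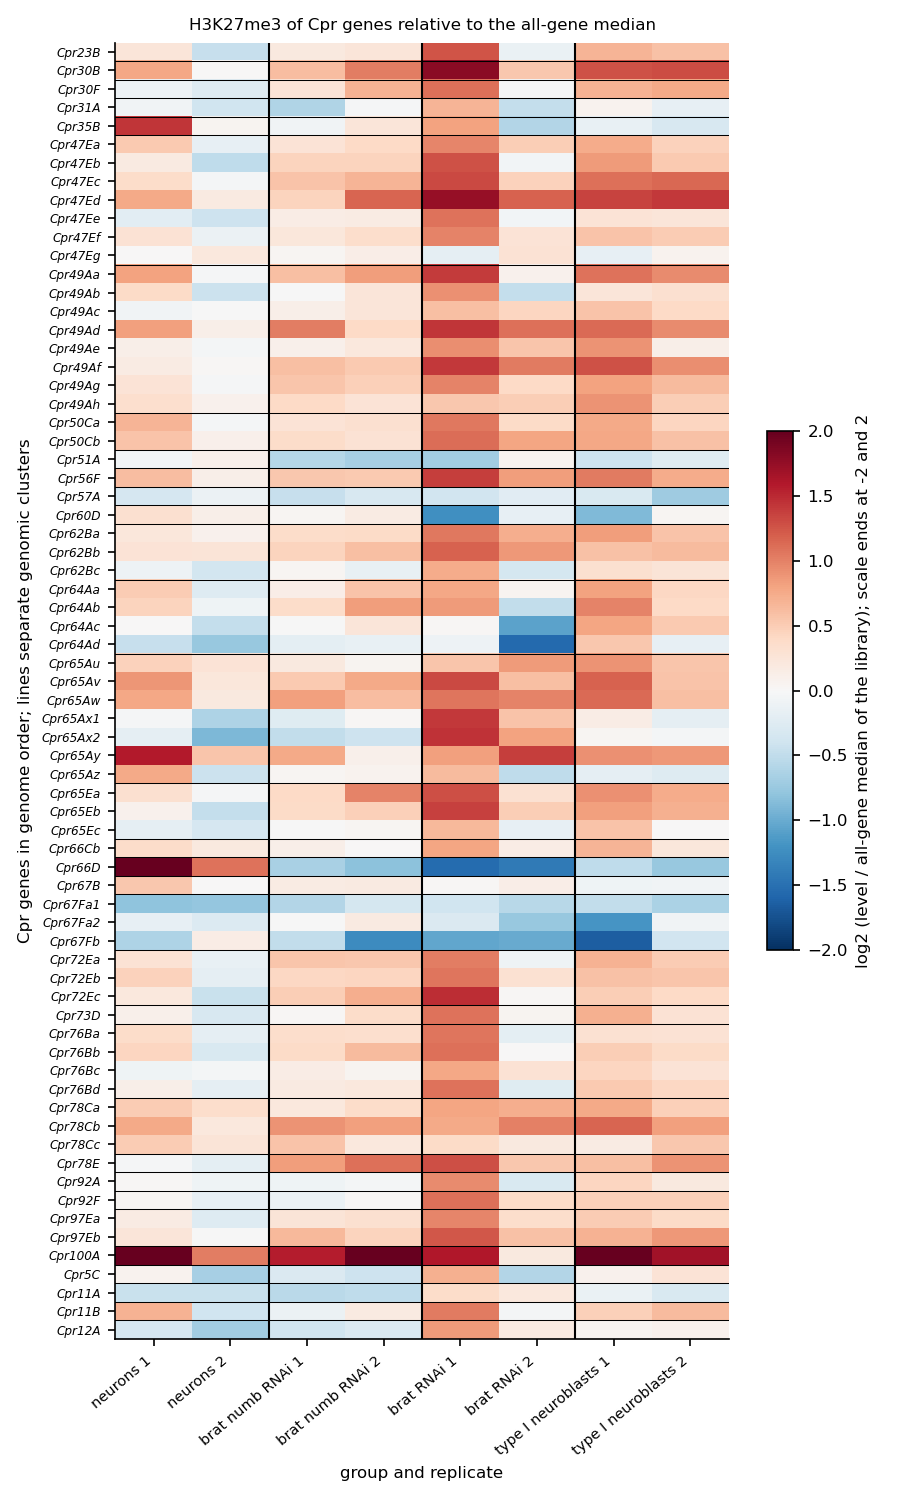
H3K27me3 of the 70 Cpr genes (rows, in genome order, with lines between genomic blocks) in the 8 libraries (columns), as log2 of the level over the all-gene median of the library; red is above and blue below that median, and the scale ends at -2 and 2. Cpr100A is red in all 8 columns, palest in brat RNAi replicate 2; Cpr66D is red in the neuron libraries and blue in the others, and the Cpr67F genes are mostly blue.

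Comparisons asked whether the marks at Cpr genes differ between neurons, tumor neuroblasts and type I neuroblasts. With edgeR's quasi-likelihood test and Benjamini-Hochberg adjustment over all genes, 0 of the 70 members passed 0.05 in any of the 8 comparisons. Over all genes, H3K4me3 calls made up 0.451% in neurons and 0.0987% in brat RNAi, each against type I neuroblasts, and 0% were called in the other 6 comparisons of both marks. DESeq2 called 3 members, 1 each in 3 comparisons: Cpr64Ac, Cpr66D and Cpr65Ax2, described below. In those comparisons it called 0.705% of all genes (H3K4me3, brat RNAi against type I neuroblasts), 0.346% (H3K27me3, neurons against type I neuroblasts) and 0.515% (H3K27me3, brat numb RNAi against brat RNAi). In the other 5 it called no member, against 2.49% of all genes in neurons, 0.0493% in brat numb RNAi and 0.0775% between the tumor groups for H3K4me3, and 0% in brat numb RNAi and 0.254% in brat RNAi for H3K27me3. Unadjusted p-values are counted per comparison below. The standard error of a member's log2 fold change had a median of 0.79 to 0.80 for H3K4me3 and 0.35 to 0.36 for H3K27me3, which limits how small a difference at a single gene could be called. A block for the SBa code of the labels (below) could be fitted for H3K4me3 only, with 1 residual degree of freedom. It fits each tumor neuroblast library exactly, so the residual comes from neurons and type I neuroblasts. Members were called in each H3K4me3 comparison with this block. The share of all genes called with it is not given here, so the number of members called is not read as a result.

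For H3K4me3 the members were higher on balance in all 3 groups than in type I neuroblasts. The median log2 fold change of the 70 was 0.45 in neurons, 0.86 in brat numb RNAi and 0.61 in brat RNAi, against 0.24, 0.27 and -0.02 over all genes tested. No member had its highest group mean in type I neuroblasts, and 53 of 70 had their lowest there. Other genes with low H3K4me3 differed as much or, in neurons, more: over 7114 other tested genes at or below the level of Cpr60D the medians were 0.68, 0.84 and 0.67. With offsets that remove the trend with abundance, the members' medians were -0.10, 0.15 and 0.03, against 0.04, 0.01 and 0.00 over all genes, so the direction in neurons turned. It turned as well without neurons replicate 2, to -0.08 against -0.05 over all genes. The members' median less that of all genes stayed positive without any other single library, from 0.08 (type I neuroblasts replicate 1 left out) to 0.44 in neurons, from 0.36 (brat numb RNAi replicate 1) to 0.84 in brat numb RNAi and from 0.26 (brat RNAi replicate 2) to 0.95 in brat RNAi.

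At an unadjusted p under 0.05, 0 members were higher in neurons (all genes 2.04%), 2 of 70 in brat numb RNAi (1.68%) and 5 of 70 in brat RNAi (3.39%), and none was lower (all genes 5.19%, 1.59% and 2.13%). Both libraries lay above both type I libraries at 28 of 70 members in neurons (23.6% of all genes), 36 of 70 in brat numb RNAi (21.1%) and 23 of 70 in brat RNAi (21.8%). They lay below both at 0, 0 and 1 member (19.5%, 16.7% and 21.6% of all genes). The 3 libraries with the lowest 75th percentile of H3K4me3 over all genes, 72.2 to 91.2 CPM, had the 3 highest member medians, 8.35 to 11.4 CPM. The library with the highest 75th percentile, type I neuroblasts replicate 1 at 200.1 CPM, had the lowest member median, 3.87 CPM.

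The labels carry SBa codes of unstated meaning, which may mark batches. Within code 27 and within code 51 the members' median H3K4me3 log2 ratio of neurons to type I neuroblasts was 0.33 and 0.52 (all genes 0.07 and 0.23), and within code 27 that of brat RNAi to type I neuroblasts was 0.54 (all genes 0.04). Brat numb RNAi and type I neuroblasts share no code, so no within-code value exists, and a block for the code links them only through brat RNAi. With that block the members' median was 0.16 in brat numb RNAi (all genes 0.05), 0.43 in neurons (0.21) and 0.65 in brat RNAi (0.13), so that the members' median less that of all genes was 0.11 instead of 0.59 in brat numb RNAi.

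Between brat numb RNAi and brat RNAi the median H3K4me3 log2 fold change of the members was 0.16, against 0.01 over all genes and 0.17 over genes with low H3K4me3. Unadjusted p was under 0.05 at 0 members (all genes 0.916% higher and 0.599% lower), and libraries did not overlap at 14 higher and 1 lower member (10.2% and 5.1% of all genes). The direction was the opposite within code 68, where the members' median was -0.42 and that of all genes 0.05, and without brat numb RNAi replicate 1 or brat RNAi replicate 1 (-0.46 and -0.05).

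**Figure D3:**
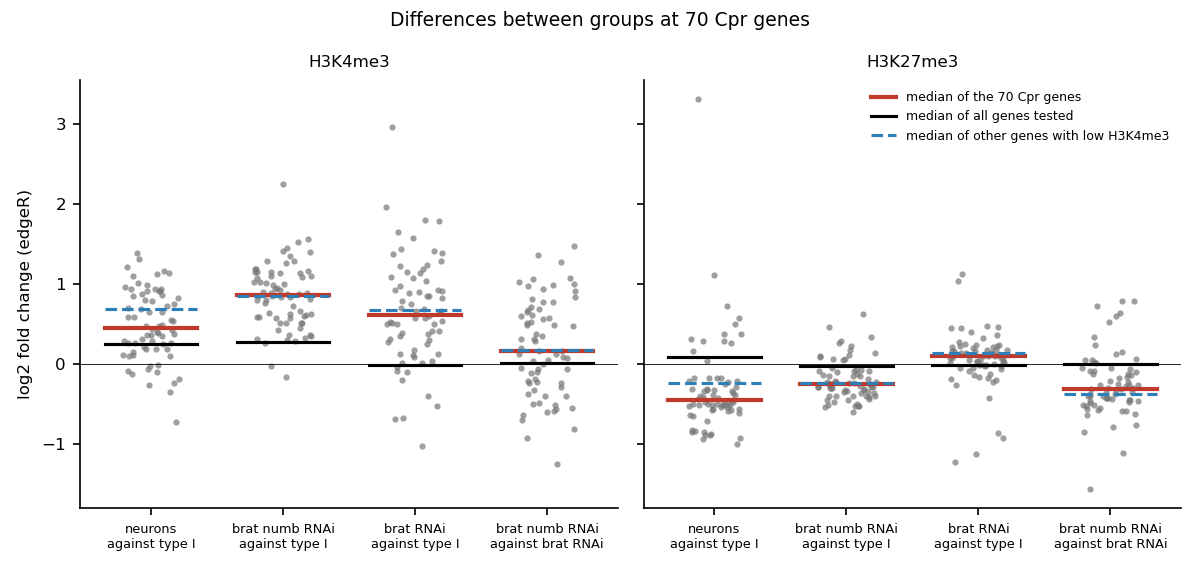
The edgeR log2 fold change (vertical axis) of each of the 70 Cpr genes (points) in the 4 comparisons (horizontal axis) for H3K4me3 (left) and H3K27me3 (right), with medians of the members, of all genes tested and of other genes with low H3K4me3. The members' medians lie near those of other genes with low H3K4me3 but in neurons against type I neuroblasts, where they are lower for both marks, at 0.45 against 0.68 for H3K4me3 and -0.45 against -0.24 for H3K27me3.

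For H3K27me3 the members were lower on balance in neurons than in type I neuroblasts. Their median log2 fold change was -0.45, against 0.08 over all genes and -0.24 over 7113 other genes with low H3K4me3, and 12 of 70 lay above the all-gene median. Among the 10 clusters 1, Cpr67F, had a median above that of all genes, and cluster medians ran from -0.68 to 0.31. Unadjusted p was under 0.05 at 8 members lower and 1 higher (5.06% and 3.94% of all genes). Both neuron libraries lay below both type I libraries at 42 of 70 members (23.9% of all genes) and above at 5 of 70 (18.8%). The members' median less that of all genes was -0.53, and it was -0.25 without neurons replicate 2, whose spread over genes was narrow, and -0.33 without type I neuroblasts replicate 1. Within code 26 the members' median was -0.33 (all genes 0.07).

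The members nearest to a call in that direction were Cpr49Af and Cpr47Ec, and Cpr47Ed had the highest level of these clusters. Cpr49Af was at 9.50 and 8.85 CPM per kb in neurons, 13.0 and 12.3 in brat numb RNAi, 22.1 and 17.3 in brat RNAi and 20.8 and 16.1 in type I neuroblasts. The neuron libraries lay below all 6 others (log2 fold change against type I neuroblasts -1.01, SE 0.30, edgeR adjusted p = 0.53). Cpr47Ec was at 11.0 and 8.46, 12.8 and 13.8, 20.9 and 11.6, and 18.4 and 18.7 CPM per kb in the same order (log2 fold change -0.94, SE 0.34, adjusted p = 0.53). Again both neuron libraries lay below the rest. Cpr47Ed was at 14.3 and 9.89, 11.7 and 19.3, 28.0 and 19.1, and 22.1 and 22.6 CPM per kb (log2 fold change -0.90, SE 0.35, adjusted p = 0.53).

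In brat numb RNAi, H3K27me3 had a median log2 fold change of -0.25 against type I neuroblasts, against -0.02 over all genes and -0.24 over other genes with low H3K4me3. Libraries did not overlap at 39 lower and 6 higher members (29.3% and 24.2% of all genes), with unadjusted p under 0.05 at none (1.86% lower and 1.1% higher among all genes). The smallest p-values were those of Cpr65Au (log2 fold change -0.60, SE 0.28), Cpr49Af (-0.54, SE 0.30) and Cpr92F (-0.52, SE 0.32), each with an edgeR adjusted p of 0.86. With library totals in place of TMM the members' median was -0.05 and that of all genes 0.17. Without type I neuroblasts replicate 1 the members' median less that of all genes was -0.10 instead of -0.23, and without replicate 2 it was -0.35.

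In brat RNAi the members' H3K27me3 was near that of type I neuroblasts. The median log2 fold change was 0.09, against -0.01 over all genes and 0.14 over other genes with low H3K4me3. Unadjusted p was under 0.05 at 2 higher and 1 lower member (3.12% and 2.82% of all genes), and libraries did not overlap at 6 higher and 3 lower (15.3% and 14.5%). The brat RNAi libraries lay far apart, with replicate 1 above replicate 2 at 60 of 70 members and a median ratio of 1.64 between them. The members' median less that of all genes was 0.10, and it was -0.27 without brat RNAi replicate 1, 0.43 without replicate 2 and 0.02 without type I neuroblasts replicate 2. Within code 26 the members' median was 0.30 (all genes -0.02).

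Brat numb RNAi against brat RNAi gave a median H3K27me3 log2 fold change of -0.31, against 0.00 over all genes and -0.38 over other genes with low H3K4me3. Unadjusted p was under 0.05 at 6 lower and 0 higher members (10.1% and 8.61% of all genes), and libraries did not overlap at 23 lower and 6 higher (29.7% and 30.7%). The direction rested on brat RNAi replicate 1: without it the members' median was 0.16 (all genes 0.06), and within code 68 it was 0.13 (all genes 0.02).

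Cpr64Ac was the member with the largest H3K4me3 difference. It lies on the minus strand of 3L, with its gene model at 4211964 to 4212915 and its start window at 4212415 to 4212915, in a cluster with Cpr64Aa, Cpr64Ab and Cpr64Ad. Its start window held 1.91 and 4.36 CPM in neurons, 8.29 and 29.7 in brat numb RNAi, 39.3 and 22.8 in brat RNAi and 2.35 and 5.59 in type I neuroblasts. All 4 tumor neuroblast libraries lay above all 4 others, and the brat RNAi values came from 388 and 71 reads. Against type I neuroblasts the log2 fold change was 2.96 (SE 0.86, edgeR adjusted p = 0.14, DESeq2 adjusted p = 0.0078) in brat RNAi and 2.25 (SE 0.84, edgeR adjusted p = 0.64) in brat numb RNAi. With the SBa code as a block the log2 fold changes were 4.04 and 4.42. That fit matches each tumor neuroblast library exactly, so it contains no spread between the libraries of either tumor group. Within code 27 the log2 ratio of brat RNAi to type I neuroblasts was 3.81, and between brat numb RNAi and brat RNAi within code 68 it was 0.37.

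The other 3 genes of the cluster were low in each group. Cpr64Aa, Cpr64Ab and Cpr64Ad stayed between 3.83 and 13.0 CPM of H3K4me3 in all 8 libraries. H3K27me3 at Cpr64Ac was 8.52 and 6.24 CPM per kb in neurons, 8.51 and 10.2 in brat numb RNAi, 8.50 and 3.99 in brat RNAi and 14.9 and 12.2 in type I neuroblasts. Both type I libraries lay above the 6 others (log2 fold change in brat RNAi over type I neuroblasts -1.12, SE 0.38, edgeR adjusted p = 0.72). All 4 genes of the cluster had negative log2 fold changes of H3K27me3 in neurons, in brat numb RNAi and in brat RNAi against type I neuroblasts, with medians of -0.68, -0.33 and -0.68. These 4 gene models lie within the longer model of CG43367, so their H3K27me3 reads also count for that gene; their start windows overlap no other.

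**Figure D4:**
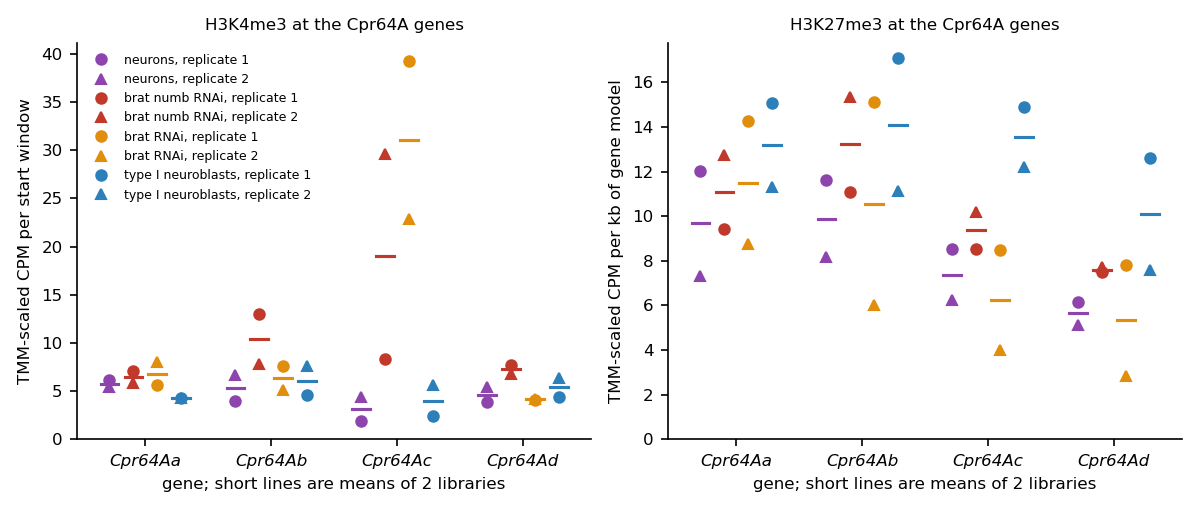
H3K4me3 in CPM per start window (left) and H3K27me3 in CPM per kb of gene model (right) of the 4 Cpr64A genes in each library, with circles for replicate 1, triangles for replicate 2 and short lines for the mean of the 2. At Cpr64Ac the 4 libraries of brat numb RNAi and brat RNAi lie between 8.29 and 39.3 CPM of H3K4me3, above those of neurons and type I neuroblasts.

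Cpr66D had the largest H3K27me3 difference. Its product is a component of the corneal lens of the adult fly eye, along with that of Cpr72Ec. The gene model (3L: 8633574 to 8636684, plus strand) held 90.7 and 18.5 CPM per kb in neurons, 5.50 and 4.86 in brat numb RNAi, 2.87 and 3.16 in brat RNAi and 6.06 and 5.0 in type I neuroblasts. Both neuron libraries lay far above the 6 others, but also far apart, as 3791 and 1704 reads (log2 fold change against type I neuroblasts 3.30, SE 0.63, edgeR adjusted p = 0.53, DESeq2 adjusted p = 1.7e-05). The log2 fold change was 4.04 without neurons replicate 2 (edgeR adjusted p = 0.0012) and 1.79 without replicate 1 (adjusted p = 0.34). Both of these fits leave 1 neuron library, assumed to vary like the other groups, so their p-values do not contain the gap between the neuron libraries. Within code 26 the log2 ratio was 3.87. H3K4me3 at its start was 3.01 and 9.0 CPM in neurons, 7.03 and 22.6 in brat numb RNAi, 6.79 and 5.46 in brat RNAi and 6.21 and 13.7 in type I neuroblasts, with overlap between neurons and each of the others.

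Genes beside Cpr66D also had more H3K27me3 in both neuron libraries. On one side, CG13305, 1327 bases away, was at 102 and 18.0 CPM per kb in neurons against 6.94 and 5.53 in type I neuroblasts, and CG6486, 3560 bases away, at 130 and 23.2 against 10.5 and 8.65. Arr2, which encodes an arrestin of photoreceptor cells and lies 3682 bases away, was at 128 and 21.1 against 13.1 and 8.55. At such close distances the gene models of CG6486 and Arr2 may overlap and share H3K27me3 reads. On the other side Zasp66, 1800 bases away, was at 35.3 and 13.0 against 7.83 and 7.24, and Cdc6 at 12.5 and 8.02 against 5.98 and 6.0. H3K4me3 fell in neurons at CG6486, Arr2 and Cdc6 (edgeR adjusted p = 0.0019, 0.0101 and 0.0215). Cpr72Ec, the other lens gene, was not high in neurons: H3K27me3 was 9.88 and 6.37 CPM per kb in neurons, 12.1 and 14.2 in brat numb RNAi, 23.2 and 8.59 in brat RNAi and 12.2 and 11.2 in type I neuroblasts.

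Cpr100A (3R: 26693245 to 26694908, plus strand) had the highest H3K27me3 of the family, with a mean of 34.7 CPM per kb that ranked at the 97.1 percentile of all genes. It was at 82.8 and 17.6 CPM per kb in neurons, 25.5 and 34.6 in brat numb RNAi, 25.4 and 9.62 in brat RNAi and 55.4 and 27.1 in type I neuroblasts. The neuron libraries spanned those of all other groups but brat RNAi replicate 2, and both brat RNAi libraries lay below those of brat numb RNAi and of type I neuroblasts (log2 fold change against type I neuroblasts -1.24, edgeR SE 0.74, adjusted p = 0.91). Its neighbour tll, which encodes the nuclear receptor Tailless that acts in brain development, lies 13149 bases away and was at similar levels but for brat RNAi: 84.8 and 16.6, 29.5 and 37.8, 5.33 and 4.64, and 58.5 and 31.2 CPM per kb in the same order of groups. CG15545 and CG15546 on the other side were at means of 23.7 and 26 in neurons and of 27.9 and 25.6 in type I neuroblasts. H3K4me3 at Cpr100A averaged 7.76 ± 3.82 CPM in neurons, 11.8 ± 2.69 in brat numb RNAi, 8.40 ± 3.57 in brat RNAi and 6.37 ± 2.17 in type I neuroblasts (SD, n = 2 each).

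**Figure D5:**
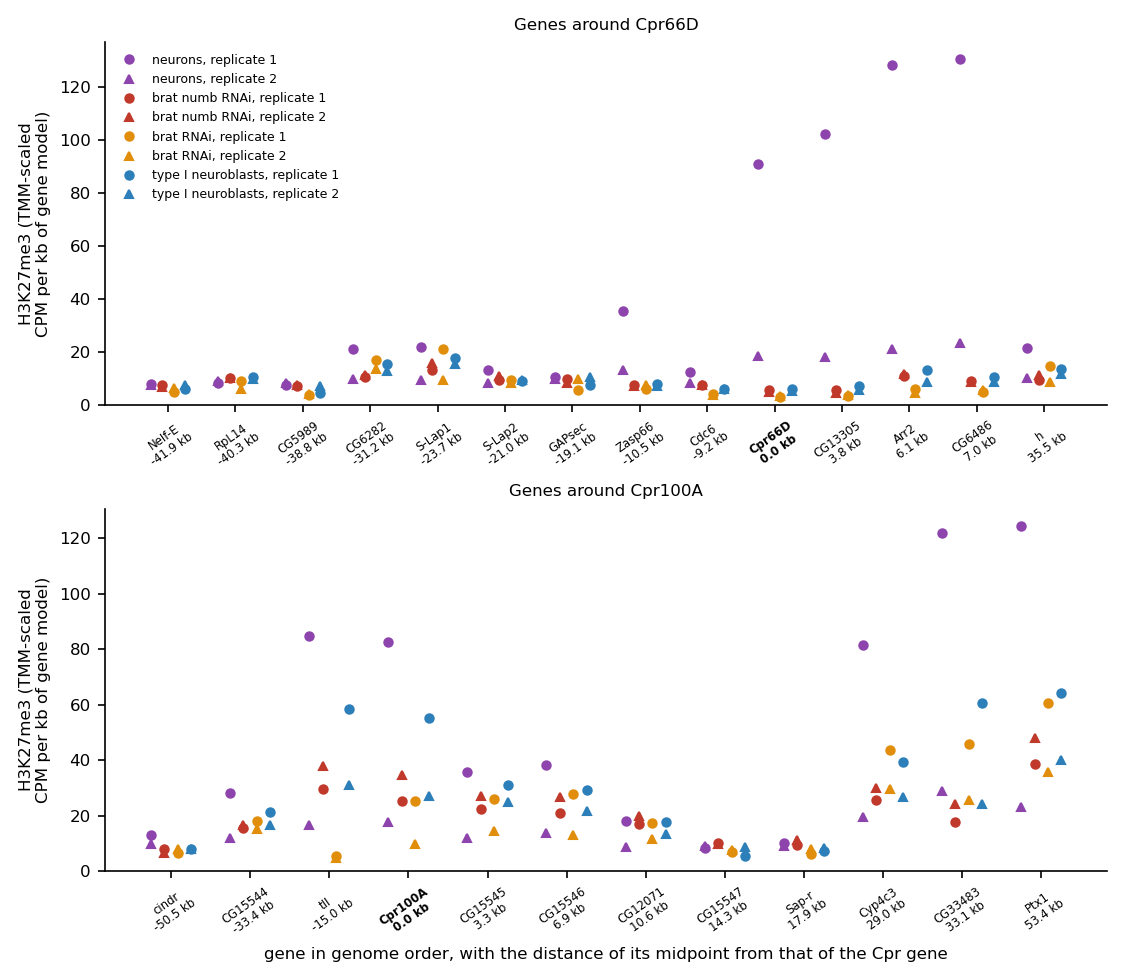
H3K27me3 in CPM per kb of gene model (vertical axis) of Cpr66D (top) and Cpr100A (bottom) and the genes around them, in genome order with the distance in kb between midpoints; circles are replicate 1, triangles replicate 2. Around Cpr66D the neuron libraries are high at Cpr66D, CG13305, Arr2 and CG6486, whereas around Cpr100A all groups are above 20 CPM per kb on average at CG15545, and tll is near 5 in brat RNAi.

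Below Cpr100A, the members with most H3K27me3 were Cpr47Ed at a mean of 18.4 CPM per kb, Cpr30B at 17.1, Cpr66D at 17.1, Cpr65Ay at 16.3, Cpr49Ad at 16.1, Cpr78Cb at 15.1 and Cpr49Af at 15.0. Cpr65Ay reached 25.4 CPM per kb in neurons replicate 1, where replicate 2 was at 12.8. The lowest were Cpr67Fb, Cpr67Fa1 and, at 6.69, Cpr57A, whose start window and gene model overlap another gene.

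Cpr65Ax1 and Cpr65Ax2 are named as copies of one gene, with gene models of 454 bases each on 3L (6140631 to 6141084 and 6143502 to 6143955). Reads that fit both copies could have been assigned to either, so their separate values are uncertain. Both had more H3K27me3 in brat RNAi than in the other groups. Cpr65Ax2 was at 7.54 and 4.69 CPM per kb in neurons, 6.10 and 6.46 in brat numb RNAi, 22.6 and 14.7 in brat RNAi and 8.87 and 8.23 in type I neuroblasts, and Cpr65Ax1 at 8.36 and 5.65, 7.26 and 8.69, 22.2 and 12.6, and 9.50 and 7.43. The brat RNAi libraries lay above the 6 others at both copies.

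For Cpr65Ax2 the log2 fold change was -1.56 in brat numb RNAi against brat RNAi (SE 0.38, edgeR adjusted p = 0.20, DESeq2 adjusted p = 0.036) and 1.12 in brat RNAi against type I neuroblasts (SE 0.38, edgeR adjusted p = 0.72). For Cpr65Ax1 these were -1.12 (SE 0.40) and 1.03 (SE 0.40). Within code 68 the log2 ratio of brat numb RNAi to brat RNAi was -1.06 at Cpr65Ax2 and -0.48 at Cpr65Ax1. The active mark at Cpr65Ax2 did not go the opposite way. H3K4me3 there was 4.51 and 6.39 CPM in neurons, 5.41 and 3.83 in brat numb RNAi, 6.69 and 9.64 in brat RNAi and 2.21 and 1.95 in type I neuroblasts. Both brat RNAi libraries lay above the others. At Cpr65Ax1 it was 2.87 and 4.21, 8.29 and 2.52, 5.68 and 8.35, and 1.93 and 3.37 CPM in the same order. Brat RNAi and brat numb RNAi thus overlapped at that copy. The H3K4me3 log2 fold change of Cpr65Ax2 against type I neuroblasts was 1.95 (SE 0.79) in brat RNAi and 1.38 (SE 0.78) in neurons, with edgeR adjusted p of 0.68 and 0.77. With the code as a block these log2 fold changes were 1.80 in brat RNAi and 1.39 in neurons. edgeR called that in neurons (adjusted p = 0.0090, 1 residual degree of freedom). The share of all genes called with this block is not given here, so that call is not read as a result. The fit contains no spread between the brat RNAi libraries.

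The other members with small p-values were at low levels. Cpr12A on X had 4.65 and 8.86 CPM of H3K4me3 in neurons, 11.7 and 4.13 in brat numb RNAi, 7.40 and 7.07 in brat RNAi and 1.93 and 3.46 in type I neuroblasts. Both type I libraries lay below the 6 others (log2 fold changes 1.30 in neurons and 1.52 in brat numb RNAi, SE 0.78 each, edgeR adjusted p = 0.78 and 0.64). Its H3K27me3 in brat numb RNAi, 6.55 and 7.04 CPM per kb against 15.0 and 9.56 in brat RNAi, gave -0.85 (SE 0.30, adjusted p = 0.22), and Cpr11A, also on X, was at 5.93 and 6.02 against 10.7 and 9.70 (-0.77, SE 0.26, adjusted p = 0.22). The type I libraries were also the lowest of the 8 at Cpr76Bb, with 3.04 and 3.46 CPM of H3K4me3 against 10.5 and 8.88 in brat numb RNAi (1.56, SE 0.77). Cpr73D was at 4.87 and 14.8 CPM in brat RNAi and 4.14 and 1.51 in type I neuroblasts (1.78, SE 0.79), and Cpr76Bd at 7.79 and 5.95 in neurons against 4.28 and 2.04 in type I neuroblasts (1.13, SE 0.76). None of these passed the threshold without a block. With the code as a block, at 1 residual degree of freedom, H3K4me3 differences of neurons against type I neuroblasts were called at Cpr12A, Cpr76Bd and Cpr73D (edgeR adjusted p = 0.011, 0.018 and 0.043). The share of all genes called with this block is not given here, so these calls are not read as a result. In brat RNAi the log2 fold change of Cpr12A was 1.96 with this block, which leaves no spread between the brat RNAi libraries.

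In brat numb RNAi against brat RNAi, the smallest H3K4me3 p-values rested on few reads. Cpr35B had 6.31 and 6.15 CPM of H3K4me3 in brat numb RNAi and 2.94 and 1.28 in brat RNAi, and Cpr65Ec 9.73 and 5.45 against 4.46 and 0.964. Their log2 fold changes of 1.47 (SE 0.79) and 1.36 (SE 0.78) rested on 4 and 3 reads in brat RNAi replicate 2, the library with the smallest total. Cpr50Ca went the other way, at 5.59 and 1.11 CPM in brat numb RNAi and 4.05 and 11.9 in brat RNAi (-1.25, SE 0.79). The edgeR adjusted p was 1.0 for all 3. With the code as a block the log2 fold changes were 2.24 for Cpr35B, 2.48 for Cpr65Ec and -3.40 for Cpr50Ca. That block compares 1 library of each group, those of code 68, and contains no spread within either group.

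Other cuticle genes were also low in H3K4me3. Of 26 further genes listed for the Rebers and Riddiford consensus (the Lcp genes without Lcp9, and the Ccp84A, Edg, Pcp, Acp65Aa and Crys genes), 0 lay above the all-gene median of H3K4me3, with a median of 6.47 CPM. Above that of H3K27me3 lay 25, with a median of 13.9 CPM per kb. The highest H3K27me3 among them was at Edg84A (50.5), Ccp84Ae (30.3) and Ccp84Af (28.2), which lie together at 84A. All 3 exceeded each Cpr gene but Cpr100A, which lay below Edg84A alone. Of 37 other listed cuticle genes, such as the Tweedle and obstructor genes, 1 lay above the all-gene median of H3K4me3 and 26 above that of H3K27me3. The 1 was Lcp9 (38 CPM), which shares the Lcp name of genes in the first list. Their medians were 6.83 CPM and 11.0 CPM per kb. None of the genes of both lists was called by edgeR in any of the 8 comparisons. Their median H3K27me3 log2 fold change in neurons against type I neuroblasts was -0.13 for the first list and -0.68 for the second.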

How the data were processed

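Chromatin immunoprecipitation reads for H3K4me3 and H3K27me3 were analysed in 16 libraries, 2 per mark and group. The deposited values are raw read counts per gene for 14284 genes in build dm3, in 501-base start windows for H3K4me3 and over whole gene models for H3K27me3, with no input subtracted. The submitters' processing notes list bedtools 2.25.0, Bowtie2 2.2.4 and deepTools 2.5.0.1. The 14 input samples were not analysed here.

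For each mark, edgeR 4.0.16 (R 4.3.3, limma 3.58.1) fitted all 8 libraries with TMM scaling and a filter on low counts, which left 14185 and 14182 genes and all 70 members. The quasi-likelihood test had 4 residual degrees of freedom, with Benjamini-Hochberg adjustment over all genes tested and a threshold of 0.05. Standard errors are the log2 fold change over the square root of F. Log2 ratios within a code used a pseudocount of 0.5 CPM. The tests were also run on simulated counts of independent libraries, which does not check them for libraries that deviate together, as some did here (below).

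Members named were the 3 with the smallest p per comparison, the 8 highest per mark, the 3 lowest for H3K27me3 and the ends of each cluster. Cpr11A and Cpr47Eb (lowest H3K4me3), Cpr72Ec, and Cpr47Ed's and Cpr64A's fuller accounts were chosen after their values were seen. Of 183 entries in the gene lists 181 were matched. Members and lists were chosen with earlier results of these data known. Alternatives were other scalings, DESeq2 1.42.0, no filter, the 2 groups alone, blocks by code or replicate, and leaving out each library.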

Additional observations from a re-analysis of the deposited data

How the results depend on the processing

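Of 136 counts of called members under alternatives, 126 were 0, as in the fits reported. DESeq2 called 1 member each for H3K4me3 in brat RNAi against type I neuroblasts, H3K27me3 in neurons against type I neuroblasts and H3K27me3 in brat numb RNAi against brat RNAi. With the code as a block, H3K4me3 calls were 13 (13 higher) in neurons, 2 (1 higher, Cpr64Ac, and 1 lower, Cpr50Ca) in brat numb RNAi and 4 (4 higher) in brat RNAi against type I neuroblasts, and 20 (3 higher, 17 lower) in brat numb RNAi against brat RNAi; the cause was not tested. The share of all genes called with this block is not given here, so its H3K4me3 counts are not read as a result. For H3K27me3 this block left no residual degrees of freedom. Leaving out 1 library gave 0 to 1 calls for H3K27me3 in neurons against type I neuroblasts (Cpr66D, without neurons replicate 2) and 0 in the other comparisons.

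With the replicate number as a block, 0 members were called in each comparison. Same-numbered libraries deviated together among neurons, brat RNAi and type I neuroblasts (r = 0.45 to 0.74) and oppositely with brat numb RNAi (r = -0.63 to -0.32). No label says that numbers pair libraries, so they were not taken as pairs. A crossed pairing of brat numb RNAi, chosen after seeing the data, called 2 members for H3K4me3 against type I neuroblasts and 2 for H3K27me3 against brat RNAi. The share of all genes called with this pairing is not given here, so its counts are not read as a result. Of 384 values of named members, 369 kept their direction and side of the threshold, 15 passed it and 0 reversed. Depth limits H3K4me3 most, where a member had as few as 3 reads in a library.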

Other observations

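Lists of genes that make, tan or regulate cuticle had median H3K4me3 of 9.93 CPM (chitin), 10.035 (tanning) and 18.4 (transcription factors), against 15.7 over all genes. Of 26 genes of chitin synthesis, assembly and turnover, 7 lay above the all-gene median of H3K4me3, led by mmy (230 CPM), Gfat2 (151) and CG10627 (121), and 20 lay above that of H3K27me3, led by the imaginal disc growth factor genes Idgf1 (42.6 CPM per kb), Idgf3 (34.6) and Idgf2 (30.3). Of 21 genes of tanning and pigmentation, 5 and 14 lay above these medians, with Dat at 19.2 CPM of H3K4me3 and y, the yellow gene, at 16 CPM per kb of H3K27me3. Of 19 transcription factors of cuticle and moulting, 11 lay above the H3K4me3 median, led by crol (319 CPM), Hr39 (198) and ftz-f1 (197), and 8 above the H3K27me3 median, led by rib (45.4 CPM per kb). No gene of these 3 lists passed edgeR's adjusted threshold in any comparison.

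Cpr30B lies 35970 bases from gcm, which encodes a glial transcription factor. H3K27me3 at gcm was 140 and 25 CPM per kb in neurons, 46.7 and 61.4 in brat numb RNAi, 59.8 and 24.0 in brat RNAi and 95.6 and 46.8 in type I neuroblasts. At Cpr30B it was 14.6 and 8.71, 13.1 and 17.4, 29.2 and 12.3, and 20.9 and 21.0 CPM per kb in the same order, so Cpr30B was below gcm in each of the 8 libraries.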
